A study of Mus musculus with 24 samples.

Results

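Hypothalamic gene expression was compared between mice at day 3 after a pituitary stalk electrical lesion (PEL_3d) and Sham mice, both without GH. The comparison was chosen by sample label and holds 6 of the 24 libraries of the series, 3 per group, each named here by its group and replicate number. All animals were male C57BL/6J mice, and in PEL surgery a 3D printed knife was lowered to the pituitary stalk and a cathodic current was passed through it. The hypothalamic tissue included the supraoptic nucleus (SON) and the paraventricular nucleus (PVN), and its RNA was sequenced as mRNA libraries. Sham animals carry the time label day 0, so the lesion and the time of 3 days after surgery cannot be told apart, and no library shows what sham surgery alone does by day 3. The labels do not say that the replicates of a group came from separate animals, so the p-values measure the spread between libraries, which may be in part technical.

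Magnocellular neurons of the SON and PVN make vasopressin and oxytocin, carry both hormones in their axons through the pituitary stalk, and release them into the blood in the posterior pituitary. A stalk lesion therefore cuts these axons a short distance from their cell bodies. Cut axons are known to switch on injury genes in the neurons they belong to. Damaged brain tissue is also a setting in which microglia, the resident macrophages of the brain, divide and change their expression, blood monocytes enter, and astrocytes take on a reactive state. In bulk tissue, more or fewer cells of a type and more or less RNA per cell of that type cannot be told apart.

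One Sham library stood apart and is described before any result. In Sham 1 the 18 genes of a hypothalamus list, among them transcription factors and receptors of hypothalamic neurons, summed to 68.6 FPKM (fragments scaled by gene length and by library size), against 1151 and 1194 in Sham 2 and 3 and 796 to 904 in PEL_3d. The hippocampus list summed to 309 FPKM in Sham 1 and to 38.0 to 43.5 in the other 5 libraries, and the choroid plexus list to 14994 and 18.9 to 32.5 FPKM. *Ttr*, the transthyretin gene and the defining choroid plexus marker, was at 14319.7 FPKM in Sham 1 and at most 5.51 elsewhere. *Avp* and *Oxt* were at 0.453 and 1.46 FPKM in it. Chi-square per degree of freedom was 163 and 164 for the pairs of Sham 1 with the other Sham libraries, against 4.585 for Sham 2 with Sham 3 and 6.28 to 11.3 within PEL_3d, and no pair of libraries was identical. The values below come from PEL_3d 1 to 3 against Sham 2 and 3 unless they are said to include Sham 1. Total counts were close, 15691068 to 16317144 in PEL_3d and 15095267 to 15593644 in Sham, and levels are given as CPM, counts scaled to a common library size (TMM scaling). A CPM is not divided by gene length, so it is compared between libraries of 1 gene, except where absolute differences are ranked or summed over genes. Where Sham 2 or Sham 3 is left out, the remaining Sham library is alone in its group, its spread is taken from PEL_3d, and the calls are conditional on that.

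**Figure D1:**
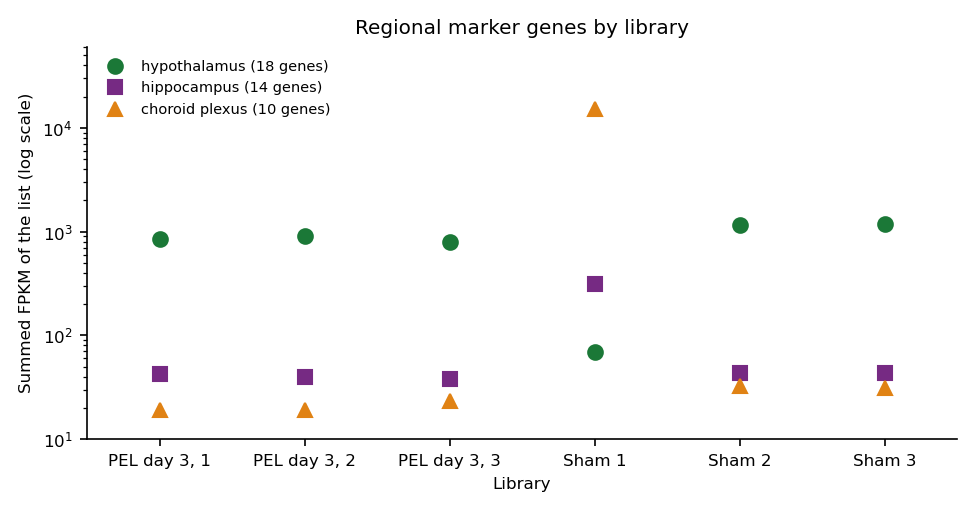
Summed FPKM (log scale) of the hypothalamus, hippocampus and choroid plexus gene lists in each of the 6 libraries. Sham 1 is at 68.6 for the hypothalamus list, where the other libraries are between 796 and 1194, and at 14994 for the choroid plexus list.

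Across all genes, 3316 genes were higher and 2719 lower in PEL_3d among 14905 tested (edgeR quasi-likelihood test, Benjamini-Hochberg adjusted p under 0.05), which is 22.2% and 18.2% of the genes tested. The changes were unequal in size: 1539 of the higher genes but only 90 of the lower ones differed by more than 1 on the log2 scale. The median log2 fold change over all tested genes was -0.01. All 3 PEL_3d libraries were above both Sham libraries in 31.6% of tested genes and below both in 31.1%. Cell cycle, macrophage, Fc receptor and oxidase, and chemokine lists had the highest medians. Neuronal and hypothalamic genes fell by small amounts, and myelin genes were mostly not called. A gene with next to no reads in Sham passes the filter on low counts only through PEL_3d, so the counts over tested list members are a description and carry no test of the list. The plot of list members shows this order.

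**Figure D2:**
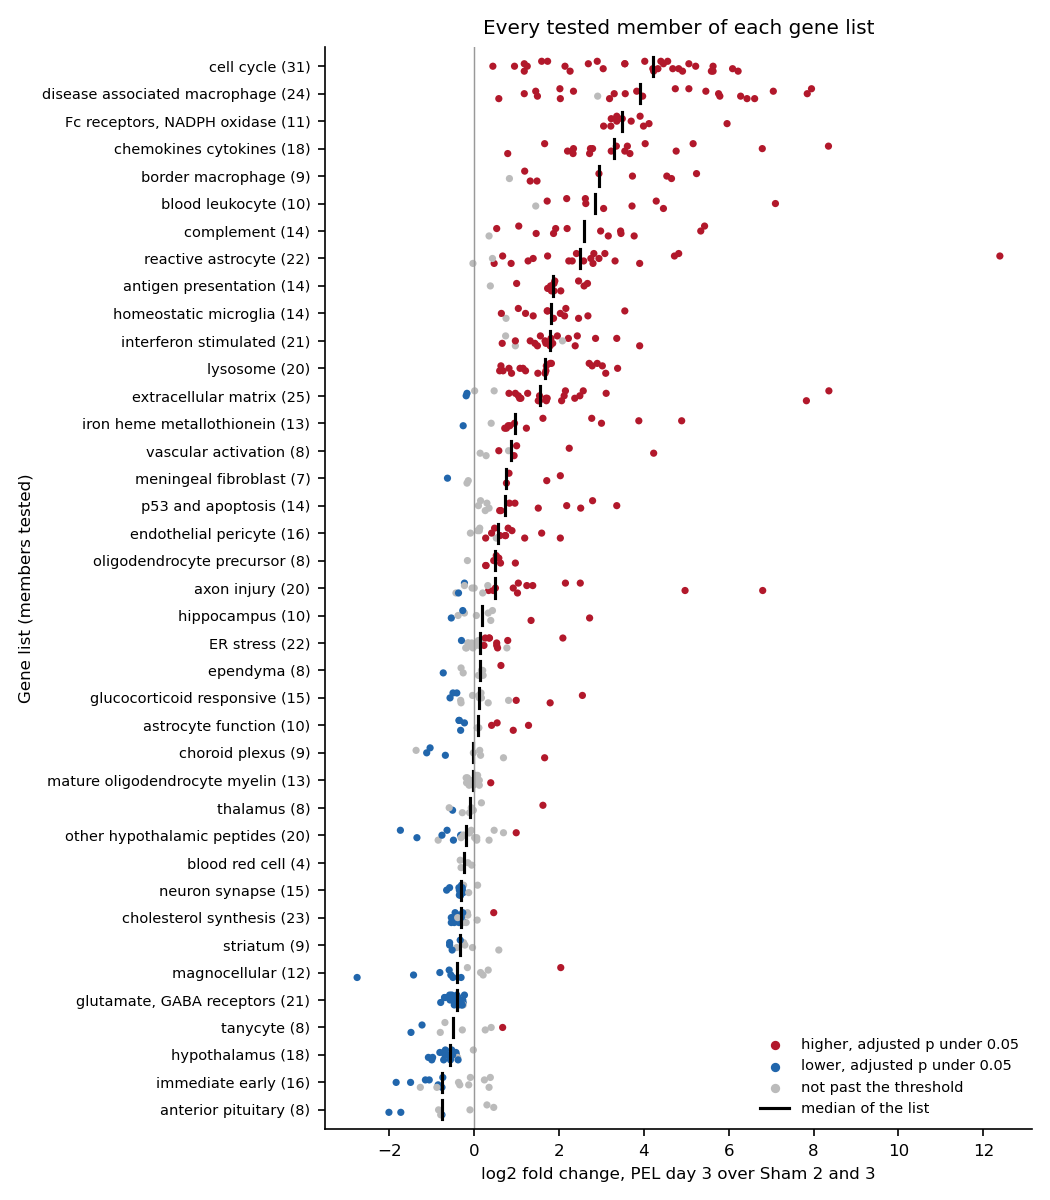
Log2 fold change of PEL_3d over Sham 2 and 3 for every tested member of each of 39 gene lists, with the number tested beside the list name and the list median as a black bar. Cell cycle genes are at the top with a median of 4.21, and the anterior pituitary list, at -0.77, and the immediate early list, at -0.75, are at the bottom.

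The magnocellular hormones were lower at day 3, and galanin was higher. *Avp*, the vasopressin gene (GRCm38 chr2:130580620-130582554, minus strand), was at 18.1, 16.3 and 12.4 CPM in PEL_3d and 81.9 and 129 in Sham, a log2 fold change of -2.76 ± 0.19 (adjusted p = 1.83e-06). Every PEL_3d library was below the lower Sham library by a wide margin. *Oxt*, the oxytocin gene (chr2:130576173-130577054, plus strand), was at 36.1, 41.8 and 16.0 CPM in PEL_3d and 48.6 and 119.5 in Sham. Its groups did not overlap, but PEL_3d 2 and Sham 2 lay close together, and the log2 fold change of -1.43 ± 0.38 (adjusted p = 0.0119) rested on Sham 3: without it the value was -0.64 (adjusted p = 0.276), and DESeq2 gave an adjusted p of 0.0954. *Gal* (chr19:3409915-3414544, minus strand), which encodes the neuropeptide galanin made by magnocellular and other hypothalamic neurons, was at 120.1, 168 and 111 CPM in PEL_3d and 34.1 and 30.6 in Sham, a log2 fold change of 2.04 ± 0.17 (adjusted p = 6.42e-06). Of 12 genes in the magnocellular list, 1 rose and 7 fell, against 22.2% and 18.2% of all tested genes. The others that fell were *Pcsk1*, a prohormone convertase (-0.81 ± 0.09), *Pdyn*, the prodynorphin gene (-0.59 ± 0.07), *Caprin2*, an RNA-binding protein (-0.55 ± 0.14), *Nos1*, neuronal nitric oxide synthase (-0.50 ± 0.07), and *Scg2*, a granin of secretory vesicles (-0.31 ± 0.07). *Creb3l1*, a transcription factor of the *Avp* gene, was at 9.73, 7.21 and 10.9 CPM in PEL_3d and 7.53 and 7.25 in Sham (adjusted p = 0.213), and passed when PEL_3d 2 was left out (0.50, adjusted p = 0.0337). Without Sham 3, 4 genes were called lower, and besides *Oxt* *Caprin2* (-0.44 without Sham 3, adjusted p = 0.097) and *Scg2* (-0.30 without Sham 3, adjusted p = 0.0612) were not. Without PEL_3d 2, 3 genes of the list were called higher.

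In the list of other hypothalamic peptide genes 6 of 20 tested genes fell and 1 rose, against 18.2% and 22.2% of all tested genes. *Ghrh*, which encodes growth hormone-releasing hormone, was at 2.48, 2.04 and 1.62 CPM in PEL_3d and 5.65 and 8.02 in Sham (-1.74 ± 0.26, adjusted p = 0.00051). *Agrp*, a feeding peptide of the arcuate nucleus, was at 1.81, 0.829 and 2.24 CPM in PEL_3d and 3.97 and 4.37 in Sham (-1.35 ± 0.35). Both genes were under 10 CPM in every library. *Pomc*, the proopiomelanocortin gene (-0.76 ± 0.15), and *Sst*, the somatostatin gene (-0.64 ± 0.09), also fell, and *Npvf*, an RFamide peptide gene, rose (0.99 ± 0.21). *Crh*, the corticotropin-releasing hormone gene made by parvocellular neurons of the PVN, was at 2.18, 4.53 and 1.55 CPM in PEL_3d and 0.942 and 2.44 in Sham, and its groups overlapped (log2 fold change 0.69 ± 0.51, adjusted p = 0.31). Leaving out 1 library ended the calls of *Agrp* (-1.28 without Sham 3, adjusted p = 0.089), *Npvf* (0.74 without Sham 3, adjusted p = 0.0642) and *Pomc* (-0.65 without Sham 2, adjusted p = 0.0533), and 3 falls were called without Sham 2. In 1 fit over all hypothalamic groups, which pools the spread of 6 groups, 2 falls were called, and *Agrp* (adjusted p = 0.0953), *Pomc* (adjusted p = 0.701) and *Sst* (adjusted p = 0.06) were not.

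Genes that mark hypothalamic neurons fell together by small amounts, 15 of 18 with none higher and a list median of -0.58. *Bsx*, a homeobox factor of the arcuate nucleus (-1.08 ± 0.16), *Irs4*, an insulin receptor substrate (-1.0 ± 0.09), *Magel2*, an imprinted gene (-0.98 ± 0.08), and *Nr5a1*, the factor SF-1 of the ventromedial nucleus (-0.81 ± 0.18), had the largest falls. Their summed FPKM was 796 to 904 in PEL_3d, below both Sham libraries. Without Sham 2, or without Sham 3, 9 falls were called, and that of *Nr5a1* (-0.66 without Sham 2, adjusted p = 0.0865) was not. Marker lists of neighbouring tissue were also read in the same libraries. Of all tested genes 22.2% were higher and 18.2% lower, and the hippocampus and thalamus counts are not far from those shares. The hippocampus list (2 higher, 2 lower of 10) summed to 38.0 to 42.1 FPKM in PEL_3d, where *Neurod6* (1.34 ± 0.47) was among those higher and *Prox1* (-0.54 ± 0.11) and *Wfs1* (-0.27 ± 0.07) were lower. The thalamus list had 1 higher (*Prkcd*, 1.62 ± 0.12) and 1 lower (*Ntng1*, -0.51 ± 0.17) of 8, and the striatum list 4 lower of 9 (*Rgs9*, -0.58 ± 0.09; *Six3*, -0.58 ± 0.13), a count that was 2 without Sham 2. For the choroid plexus list 1 was higher (*Aqp1*, 1.66 ± 0.49) and 3 were lower (*Clic6*, -1.12 ± 0.12; *Kl*, -1.04 ± 0.16; *Prlr*, -0.68 ± 0.12) of 9. The calls of *Neurod6* (1.22 without Sham 3, adjusted p = 0.2), *Prox1* (-0.39 without Sham 2, adjusted p = 0.0606), *Wfs1* (-0.23 without Sham 2, adjusted p = 0.104), *Ntng1* (-0.36 without Sham 2, adjusted p = 0.292), *Six3* (-0.38 without Sham 3, adjusted p = 0.0822) and *Aqp1* (1.13 without Sham 3, adjusted p = 0.172) ended when 1 library was left out. Whether the dissections held different amounts of these regions was not tested.

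Markers of cells near the stalk were also read. Their counts stand beside 22.2% higher and 18.2% lower of all tested genes, and the tanycyte and ependymal counts are not far from those shares. In the anterior pituitary list 3 of 8 genes fell, *Fshb* (0.242, 0.446 and 0.373 CPM in PEL_3d and 1.41 and 1.48 in Sham), *Tbx19* (-1.73 ± 0.34) and *Cga* (-0.76 ± 0.25), and the list summed to 14.3 to 28.7 FPKM in PEL_3d and 22.2 and 38.0 in Sham, ranges that overlapped. Tanycytes, the radial glia that line the floor of the third ventricle, were read from 8 genes, of which *Col23a1* (-1.49 ± 0.24) and *Gpr50* (-1.23 ± 0.20) fell and *Vcan* (0.67 ± 0.09) rose. The tanycyte falls numbered 4 without PEL_3d 1 and with the replicate block, and the rises 2 without PEL_3d 2. Of 8 ependymal genes, *Foxj1*, the master factor of motile cilia, rose (0.63 ± 0.13) and *Ccdc153* fell (-0.73 ± 0.17). The calls of *Cga* (-0.62 without Sham 2, adjusted p = 0.227), *Foxj1* (0.54 without Sham 2, adjusted p = 0.0623) and *Ccdc153* (-0.61 without Sham 2, adjusted p = 0.096) ended when 1 library was left out. In 1 fit over all hypothalamic groups *Fshb* (adjusted p = 0.187) and *Cga* (adjusted p = 0.403) were not called, which left 1 fall in the pituitary list, and 1 was left when only genes averaging 50 counts or more were tested.

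Immediate early genes, which neurons transcribe within minutes of activity, were lower or not called. Of 16 genes 7 fell and 0 rose, against 18.2% and 22.2% of all tested genes. *Npas4* was at 2.3, 1.08 and 2.61 CPM in PEL_3d and 6.26 and 8.09 in Sham (-1.84 ± 0.31, adjusted p = 0.00108) and *Fosb* at 3.38, 1.34 and 1.62 CPM in PEL_3d and 6.53 and 5.52 in Sham (-1.50 ± 0.35). *Egr1* (-1.06 ± 0.23), *Nr4a1* (-1.15 ± 0.26) and *Arc* (-0.76 ± 0.13) also fell. In PEL_3d the levels of *Egr1*, 51.1, 23.7 and 31.3 CPM, were all below both Sham libraries, at 67.4 and 80.7 CPM. With the replicate number as a block 11 falls were called, without Sham 3 3 were, 1 gene was called higher without PEL_3d 2 or without Sham 3, and leaving out 1 library ended the calls of *Egr1* (-0.93 without Sham 3, adjusted p = 0.0684), *Fosb* (-1.38 without Sham 2, adjusted p = 0.0722) and *Nr4a1* (-0.59 without Sham 3, adjusted p = 0.117). Among 15 glucocorticoid-responsive genes the counts were near the shares of all tested genes, 22.2% higher and 18.2% lower. In this list 3 rose, *Xdh* (2.55 ± 0.21), *Angptl4* (1.79 ± 0.23) and *Sgk1* (0.99 ± 0.19), and 3 fell, *Tsc22d3* (-0.57 ± 0.08), *Zbtb16* (-0.50 ± 0.17) and *Per1* (-0.41 ± 0.14). The last 2 falls were not called without Sham 2 or without Sham 3, with *Zbtb16* (-0.47 without Sham 3, adjusted p = 0.157) and *Per1* (-0.28 without Sham 3, adjusted p = 0.295) at the largest p.

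Most genes of the axon injury list were higher, and which cells made their RNA was not tested. *Sprr1a*, a small proline-rich protein made by regenerating neurons (chr3:92483952-92485895, minus strand), was at 30.6, 29.1 and 20 CPM in PEL_3d and 0.135 and 0.321 in Sham, a log2 fold change of 6.80 ± 0.36 (adjusted p = 3.29e-07). *Atf3*, a stress transcription factor and standard marker of axotomized neurons (chr1:191170296-191218039, minus strand), was at 36.0, 43.8 and 31.7 CPM in PEL_3d and 0.74 and 1.6 in Sham (4.97 ± 0.25, adjusted p = 2.71e-07). Both were far below their PEL_3d levels in Sham 2 and 3. *Jun*, a partner of *Atf3*, rose by less (73.2, 68.2 and 74.8 CPM in PEL_3d and 49.1 and 56.2 in Sham, 0.45 ± 0.09, adjusted p = 0.00199). Of 20 genes in the axon injury list 12 rose and 2 fell, against 22.2% and 18.2% of all tested genes. *Socs3*, an inhibitor of cytokine signalling (2.50 ± 0.17), *Tnfrsf12a*, the TWEAK receptor (2.15 ± 0.17), *Cebpb* (1.38 ± 0.25), *Lif* (1.24 ± 0.32), *Csf1* (1.04 ± 0.14), *Hspb1* (1.02 ± 0.20) and *Stat3* (0.92 ± 0.09) rose. The growth-cone gene *Gap43* was lower (-0.23 ± 0.08), as was *Ecel1* (-0.37 ± 0.07), and *Sox11*, a factor of regrowing axons, was not called (0.20 ± 0.11, adjusted p = 0.175). The calls of *Gap43* (-0.20 without Sham 3, adjusted p = 0.239) and *Lif* (1.16 without Sham 3, adjusted p = 0.077) ended when 1 library was left out, and neither *Ecel1* (adjusted p = 0.164) nor *Gap43* (adjusted p = 0.0706) was called in 1 fit over all hypothalamic groups.

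**Figure D3:**
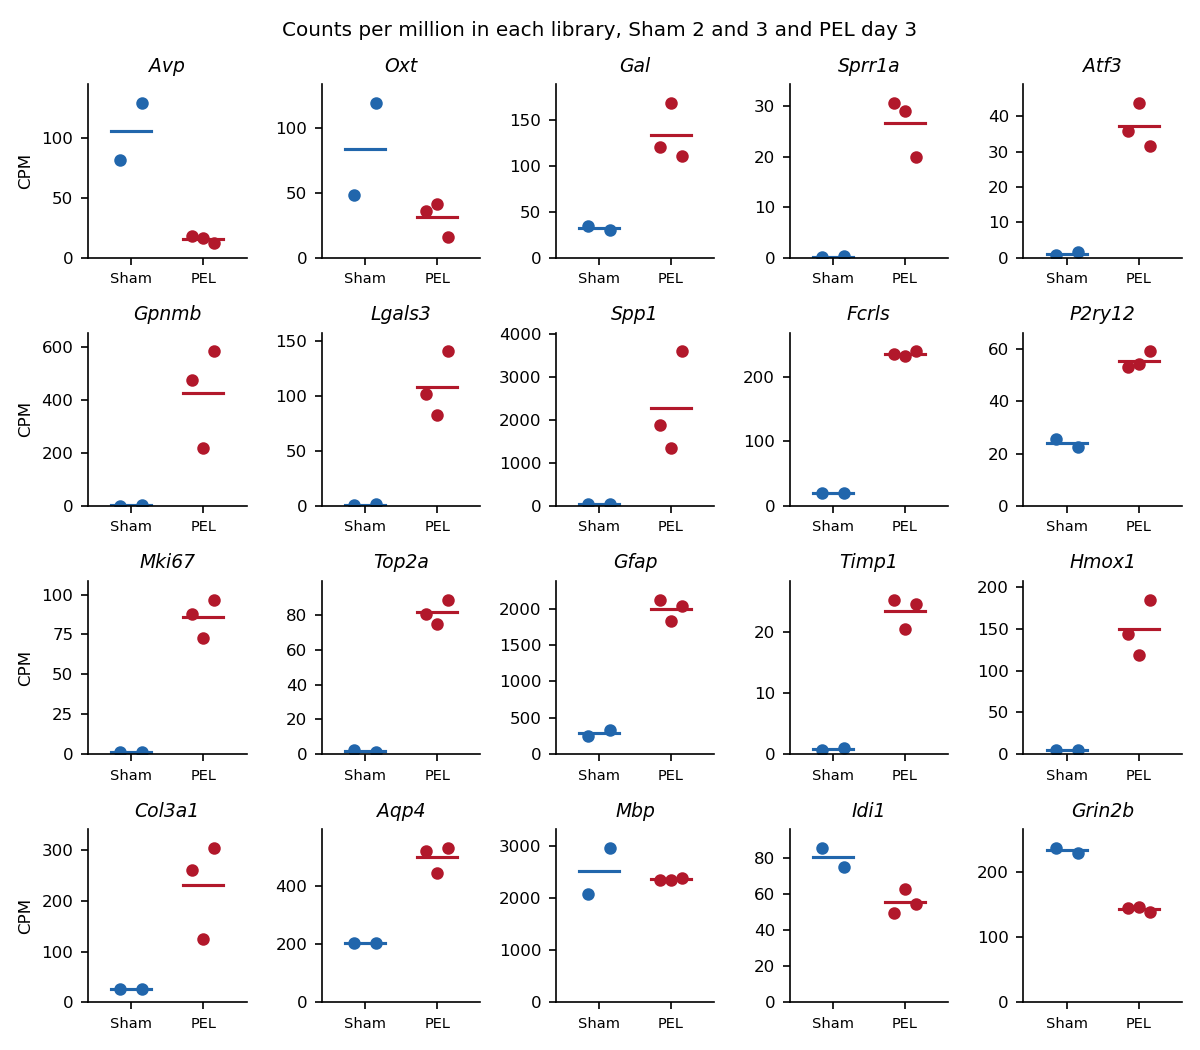
CPM of 20 genes in Sham 2 and 3 (blue) and PEL_3d 1 to 3 (red), each panel from 0, with points for libraries and bars for group means. *Avp* is at 12.4 to 18.1 CPM in PEL_3d and at 81.9 and 129 in Sham, while *Mbp* overlaps between the groups.

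Cell stress genes rose in part. In the p53 and apoptosis list 9 of 14 rose and none fell. Among these were *Eda2r* (3.36 ± 0.37), *Casp8*, an initiator caspase (2.79 ± 0.18), *Pmaip1*, the gene of NOXA (2.51 ± 0.32), *Tnfrsf1a*, a TNF receptor (2.18 ± 0.15), *Cdkn1a*, the gene of the cell cycle inhibitor p21 (1.51 ± 0.14), *Fas* (0.96 ± 0.24), *Bax* (0.63 ± 0.12) and *Ccng1* (0.60 ± 0.08). The call of *Fas* (0.79 without Sham 2, adjusted p = 0.0889) ended when 1 library was left out. For endoplasmic reticulum stress 9 of 22 rose and 1 fell, against 22.2% and 18.2% of all tested genes, with a median of 0.14. *Edem1*, which sends misfolded proteins to degradation, rose most (93.7, 86.4 and 108 CPM in PEL_3d and 23.9 and 21.4 in Sham, 2.09 ± 0.11), followed by *Sdf2l1* (0.79 ± 0.16), *Pdia4* (0.55 ± 0.07) and *Creld2* (0.53 ± 0.12). The main chaperone gene *Hspa5* was not called (-0.06 ± 0.07, adjusted p = 0.535). Without Sham 2, or without Sham 3, 5 genes were called higher.

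Microglia and macrophage genes rose broadly. The homeostatic list, genes of resting microglia, had 13 of 14 higher and a median of 1.80. *Fcrls* was at 235, 231 and 239 CPM in PEL_3d and 19.8 and 20.2 in Sham (3.55 ± 0.08, adjusted p = 1.89e-09), and *Olfml3* (2.68 ± 0.09) and *Gpr34* (2.16 ± 0.12) rose too. The purinergic receptor *P2ry12*, at 53.1, 54.4 and 59.1 CPM in PEL_3d and 25.4 and 22.5 in Sham (1.21 ± 0.10), and *Tmem119* (1.73 ± 0.10) had smaller values than *Csf1r*, the receptor microglia need to survive (2.13 ± 0.08), and *Cx3cr1* (2.03 ± 0.08). The list summed to 829 to 881 FPKM in PEL_3d and 174 and 183 in Sham.

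Genes of lipid-handling, disease-associated macrophages rose as well, 23 of 24 with a median of 3.90. *Gpnmb*, a transmembrane glycoprotein of phagocytes (chr6:49036546-49070929, plus strand), was at 476, 218 and 583 CPM in PEL_3d and 1.41 and 2.25 in Sham (7.85 ± 0.52, adjusted p = 1.6e-06). PEL_3d 2 was the lowest of the PEL_3d libraries and still far above Sham. *Spp1*, the osteopontin gene, was at 1878, 1352 and 3593 CPM in PEL_3d and 38.8 and 43.3 in Sham (5.79 ± 0.41), and in this gene PEL_3d 3 was the highest library. *Lgals3*, the galectin-3 gene (chr14:47367751-47386160, plus strand), was at 102, 82.8 and 141 CPM in PEL_3d and 1.14 and 1.35 in Sham (6.43 ± 0.30, adjusted p = 1.54e-07). *Msr1*, a scavenger receptor (6.61 ± 0.34), *Clec7a* (5.76 ± 0.31), *Lyz2* (5.46 ± 0.34) and *Cd68* (5.06 ± 0.22) rose as well. *Mmp12*, macrophage elastase, had 2 counts over both Sham libraries, and its ratio of PEL_3d to Sham was 276 (95% counting interval from 76.2 to 2282). For *Cst7*, with 1 Sham count, the ratio was 164 (from 29.1 to 6494). For *Atp6v0d2*, a subunit of the proton pump, also with 1 Sham count, it was 96.4 (from 17.0 to 3831). These intervals cover counting error only. *Apoe*, which astrocytes also express at a high level, rose least (2909.6, 2653 and 3139.8 CPM in PEL_3d and 1908 and 1963 in Sham, 0.58 ± 0.08), and *Trem2* was at 59.5, 53.1 and 70.8 CPM in PEL_3d and 6.26 and 6.16 in Sham (3.30 ± 0.15). *Lilrb4a* did not pass (2.91 ± 1.21, adjusted p = 0.0795), though it did without PEL_3d 2 (3.51, adjusted p = 0.000532).

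Border macrophages of the meninges and vessels and the phagocyte machinery moved the same way. Of 9 border macrophage genes 8 rose, *Siglec1* (5.24 ± 0.57), *Ms4a7* (4.65 ± 0.53), *Pf4* (4.54 ± 0.43) and *F13a1* (3.73 ± 0.36) the most, and *Cd163* was not called (0.83 ± 0.31, adjusted p = 0.056) unless PEL_3d 2 was left out (1.06, adjusted p = 0.0103). All 11 genes of Fc receptors and the phagocyte NADPH oxidase rose. *Fcgr4* was at 7.73, 9.56 and 15 CPM in PEL_3d and 0.269 and 0.0642 in Sham (5.96 ± 0.52), and the oxidase subunit *Cybb* at 28.7, 21.9 and 44.4 CPM in PEL_3d and 2.29 and 1.35 in Sham (4.12 ± 0.35), with *Rac2* (3.99 ± 0.26) and *Fcgr2b* (3.91 ± 0.17) also among the largest. Complement had 13 of 14 higher. The receptors *C5ar1* (19.1, 13.5 and 23.6 CPM in PEL_3d and 0.269 and 0.578 in Sham, 5.43 ± 0.37) and *C3ar1* (5.34 ± 0.26) had larger values than *C1qb*, a chain of the initiating component (270.0, 238 and 332 CPM in PEL_3d and 25 and 25.8 in Sham, 3.46 ± 0.14), *C3* (1.87 ± 0.16) and *C4b* (2.19 ± 0.09), and *Cfb* rose too (3.77 ± 0.83), though not past the threshold when 1 library was left out (3.04 without Sham 2, adjusted p = 0.071). All 20 lysosomal genes rose with a median of 1.68, led by the cathepsins *Ctsc* (3.38 ± 0.15) and *Ctsz* (3.10 ± 0.11), *Grn*, the progranulin gene (3.02 ± 0.13), and *Gusb* (2.90 ± 0.14).

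Every tested chemokine or cytokine gene rose, 18 of 18, while 6 further genes of the list did not pass the filter on low counts, among them *Il6* and *Tnf*. *Ccl2*, the monocyte attractant, was at 6.53, 2.81 and 7.33 CPM in PEL_3d and 0.269 and 0.128 in Sham (4.76 ± 0.60, adjusted p = 0.000154). *Ccl4* had no count in either Sham library and was at 2.9, 2.23 and 2.61 CPM in PEL_3d, at least 26.2-fold higher than the limit set by 3 counts over the Sham group, which serves for all lower bounds below. *Ccl3* had 1 Sham count (ratio 137, from 24.4 to 5449), and *Il1rn*, the interleukin-1 receptor antagonist, had 2 (ratio 40, from 10.8 to 334). *Osm*, the oncostatin M gene, had 3 (ratio 12.6, from 4.11 to 62.8), and its call ended when 1 library was left out (adjusted p = 0.0682 without Sham 2). *Il1b* (3.61 ± 0.71) and *Tgfb1* (2.79 ± 0.19) rose as well.

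Blood leukocyte genes were counted in few reads. Only 10 of 19 passed the filter, and 9 of those rose. The list summed to 13.3, 22.0 and 38.1 FPKM in PEL_3d and to 6.65 and 2.79 in Sham, so PEL_3d 3 was highest. *Ly6c2*, a marker of inflammatory monocytes, was at 0.423, 1.47 and 7.27 CPM in PEL_3d and 0.0673 and 0.193 in Sham (4.46 ± 1.32, adjusted p = 0.0209), and *Itgal*, an integrin of leukocytes, at 6.22, 2.74 and 6.84 CPM in PEL_3d and 0.202 and 0.321 in Sham (4.29 ± 0.55). *Plac8* (3.72 ± 0.77) and *Ccr2*, the receptor for *Ccl2* (3.05 ± 0.42), rose, and *Cxcr2*, a neutrophil receptor, had no Sham count and was at least 10.9-fold higher. The T cell genes *Cd3e*, *Cd3g* and *Cd8a* and the B cell genes *Cd79a* and *Ms4a1* did not pass the filter. Without Sham 3, 4 genes were called higher, and leaving out 1 library ended the calls of *Ly6c2* (3.93 without Sham 2, adjusted p = 0.164) and *Plac8* (3.35 without Sham 2, adjusted p = 0.0566). Hemoglobin and other red cell genes were not called in any of 4 cases: *Hbb-bs* was at 8.16, 4.91 and 6.65 CPM in PEL_3d and 9.15 and 5.46 in Sham (adjusted p = 0.695) and *Hba-a1* at 4.17, 1.53 and 2.18 CPM in PEL_3d and 3.57 and 2.95 in Sham (adjusted p = 0.563).

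Antigen presentation genes rose in 13 of 14 cases, with *Ciita*, the regulator of class II genes (2.67 ± 0.51), *Cd86* (2.59 ± 0.23), the immunoproteasome subunit *Psmb8* (2.46 ± 0.43) and *H2-Ab1*, a class II chain (17.6, 16.1 and 21.6 CPM in PEL_3d and 3.9 and 5.07 in Sham, 2.04 ± 0.19), highest. Class I and class II H2 genes share sequence with close copies, and their reads may be split between them. Interferon-stimulated genes rose in 18 of 21 cases with a median of 1.79, and the libraries were uneven. *Zbp1*, a nucleic acid sensor, was at 1.39, 2.55 and 9.57 CPM in PEL_3d and 0.0673 and 0.514 in Sham (3.90 ± 0.98, adjusted p = 0.00969), *Oas1a* at 4.77, 5.36 and 14.4 CPM in PEL_3d and 0.606 and 0.963 in Sham (3.36 ± 0.57), *Ifi44* at 2.12, 1.98 and 7.71 CPM in PEL_3d and 0.606 and 0.835 in Sham (2.43 ± 0.67) and *Ifi27l2a* at 4.71, 13.9 and 22.5 CPM in PEL_3d and 2.02 and 1.73 in Sham (2.86 ± 0.58). PEL_3d 3 was the highest library in each of these 4 genes, and the list summed to 175, 206 and 397 FPKM in PEL_3d against 72.5 and 79.8 in Sham. Without Sham 2 the count of rises was 8 and without Sham 3 it was 9. The calls of *Zbp1* (3.11 without Sham 2, adjusted p = 0.115), *Ifi44* (2.22 without Sham 2, adjusted p = 0.131) and *Ifi27l2a* (2.75 without Sham 3, adjusted p = 0.05) were among those that ended.

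Many interferon-stimulated genes are known to carry the interferon-stimulated response element, searched for here as GAAANNGAAA on both strands. In the 250 bases before the start site given by RefSeq (GRCm38.p6), 8 of the 15 list members with an entry held it, 53.3% against 3.04% of all 27025 promoters searched. A match is a description of the letters and not evidence of a bound site. The windows of *Oas1a* (chr5:120907526-120907775, minus strand, 2 matches, which overlap), *Isg15* (chr4:156200819-156201068, minus strand, 3 overlapping matches) and *Ifit1* (chr19:34640639-34640888, plus strand, 2 matches) are printed to show where the element lies, with matches in capitals, and were chosen after their values and matches had been seen.
Oas1a: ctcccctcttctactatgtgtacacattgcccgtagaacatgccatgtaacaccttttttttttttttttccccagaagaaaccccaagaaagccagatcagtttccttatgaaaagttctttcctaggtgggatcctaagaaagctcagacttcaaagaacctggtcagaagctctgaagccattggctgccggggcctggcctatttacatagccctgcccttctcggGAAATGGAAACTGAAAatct
Isg15: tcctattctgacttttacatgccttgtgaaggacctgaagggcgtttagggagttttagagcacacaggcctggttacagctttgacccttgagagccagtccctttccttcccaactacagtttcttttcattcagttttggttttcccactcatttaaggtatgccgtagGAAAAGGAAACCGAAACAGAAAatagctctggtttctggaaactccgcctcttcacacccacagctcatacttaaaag
Ifit1: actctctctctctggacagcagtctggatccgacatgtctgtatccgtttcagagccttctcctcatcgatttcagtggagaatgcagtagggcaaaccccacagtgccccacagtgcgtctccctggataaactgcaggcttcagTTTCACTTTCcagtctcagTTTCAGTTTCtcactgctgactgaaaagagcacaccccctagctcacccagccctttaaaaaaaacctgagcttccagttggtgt
The log2 fold changes of *Isg15* and *Ifit1* were 1.85 ± 0.48 and 1.49 ± 0.43, and both calls ended when 1 library was left out, *Isg15* (1.71 without Sham 2, adjusted p = 0.105) and *Ifit1* (1.30 without Sham 2, adjusted p = 0.166).

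Cell cycle genes rose without exception, 31 of 31, with a median of 4.21 and with every PEL_3d library above both Sham libraries for each gene. *Mki67*, the proliferation marker Ki-67 (chr7:135689784-135716361, minus strand), was at 87.9, 72.5 and 96.9 CPM in PEL_3d and 1.41 and 1.09 in Sham (6.09 ± 0.20, adjusted p = 3.39e-08). *Ube2c*, which serves the anaphase-promoting complex, was at 16.7, 16.8 and 19.5 CPM in PEL_3d and 0.202 and 0.257 in Sham (6.22 ± 0.27). *Top2a*, a DNA topoisomerase, was at 80.8, 75.2 and 89.1 CPM in PEL_3d and 2.15 and 1.16 in Sham (5.63 ± 0.18), and *Cdk1*, the mitotic kinase, at 18.7, 21.0 and 24.7 CPM in PEL_3d and 0.471 and 0.385 in Sham (5.63 ± 0.25). In these genes the spread within PEL_3d was small beside the gap to Sham. Further genes of mitosis, *Aurkb* (5.59 ± 0.39), *Bub1* (5.22 ± 0.28) and *Ccnb1* (4.91 ± 0.28), and genes of DNA replication, *Mcm5* (3.55 ± 0.25), *Mcm2* (2.26 ± 0.14), *Pcna* (1.18 ± 0.10) and *Mcm4* (0.95 ± 0.10), rose as well. The smallest rise was that of *Ccne1* (0.44 ± 0.15), and its call ended when 1 library was left out (0.43 without Sham 2, adjusted p = 0.174). Which cells divided was not tested, and microglial genes moved in the same libraries.

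Promoters of cell cycle genes often hold CCAAT boxes and a cell-cycle homology region with the core TTTGAA. On either strand of the 250 bases before the start site, 21 of the 26 list members with an entry held CCAAT (80.8%, against 34.5% of all promoters) and 8 held TTTGAA (30.8%, against 16.3%). The windows of the 4 genes with the largest rises in the list follow, in which matches to either motif are in capitals, and CCAAT matches on both strands can overlap. They lie at chr2:164769679-164769928 (plus strand, 6 CCAAT and 1 TTTGAA match), chr7:135716380-135716629 (minus strand, 3 and 2), chr10:69352913-69353162 (minus strand, 3 and 2) and chr11:99024190-99024439 (minus strand, 6 and 2).
Ube2c: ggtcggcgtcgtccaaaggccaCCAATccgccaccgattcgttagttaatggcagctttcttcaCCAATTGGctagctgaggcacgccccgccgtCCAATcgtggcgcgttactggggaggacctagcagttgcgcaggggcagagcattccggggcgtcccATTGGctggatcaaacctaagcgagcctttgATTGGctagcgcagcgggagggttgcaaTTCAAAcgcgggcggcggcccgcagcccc
Mki67: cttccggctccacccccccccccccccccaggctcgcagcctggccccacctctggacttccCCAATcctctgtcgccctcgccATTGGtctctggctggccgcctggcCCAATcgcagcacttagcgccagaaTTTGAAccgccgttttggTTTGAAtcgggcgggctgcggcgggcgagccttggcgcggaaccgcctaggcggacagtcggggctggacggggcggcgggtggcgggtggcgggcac
Cdk1: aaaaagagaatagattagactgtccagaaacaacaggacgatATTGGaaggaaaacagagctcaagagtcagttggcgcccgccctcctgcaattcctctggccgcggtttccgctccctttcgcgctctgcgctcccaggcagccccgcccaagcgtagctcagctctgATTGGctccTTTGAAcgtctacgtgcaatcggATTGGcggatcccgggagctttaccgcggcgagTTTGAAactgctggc
Top2a: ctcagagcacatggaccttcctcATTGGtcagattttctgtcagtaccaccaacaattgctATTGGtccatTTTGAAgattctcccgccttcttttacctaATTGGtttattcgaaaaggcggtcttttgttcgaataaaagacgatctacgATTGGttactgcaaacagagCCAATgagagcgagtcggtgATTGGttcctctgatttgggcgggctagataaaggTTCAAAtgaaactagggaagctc
The matches nearest to the start site were 29, 98, 15 and 23 bases before it, counted from the first base of the match.

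Reactive astrocyte genes rose in 20 of 22 cases with a median of 2.49. *Gfap*, the intermediate filament of astrocytes (chr11:102887336-102900912, minus strand), was at 2123, 1822 and 2040.4 CPM in PEL_3d and 256 and 338 in Sham (2.75 ± 0.12, adjusted p = 1.1e-07). *Tgm1*, a transglutaminase (chr14:55700009-55713926, minus strand), had no count in Sham 2 or 3 and was at 48.0, 35.5 and 44.5 CPM in PEL_3d, at least 433-fold higher. *Timp1*, an inhibitor of matrix proteases, was at 25.3, 20.5 and 24.6 CPM in PEL_3d and 0.673 and 0.963 in Sham (4.82 ± 0.22). *Lcn2*, which encodes lipocalin-2 (4.72 ± 0.39), *Tnc*, the tenascin C gene (3.90 ± 0.36), *Vim*, the vimentin gene (3.32 ± 0.07), *Cd44* (2.94 ± 0.10) and *Serpina3n* (2.82 ± 0.09) also rose. Genes of astrocyte upkeep were split, 4 higher and 4 lower of 10. The water channel *Aqp4* was at 522, 444 and 532 CPM in PEL_3d and 205 and 205 in Sham (1.28 ± 0.09), and *Aldh1l1* (0.92 ± 0.07), *Gja1* (0.54 ± 0.06) and *S100b* (0.41 ± 0.10) rose, whereas the glutamate transporters *Slc1a3* (-0.35 ± 0.08) and *Slc1a2* (-0.23 ± 0.08), glutamine synthetase *Glul* (-0.32 ± 0.07) and *Gjb6* (-0.36 ± 0.08) fell. Without Sham 3, 1 gene was called lower, and the calls of *S100b* (0.26 without Sham 2, adjusted p = 0.144), *Slc1a2* (-0.19 without Sham 2, adjusted p = 0.246), *Slc1a3* (-0.34 without Sham 2, adjusted p = 0.0677), *Glul* (-0.27 without Sham 3, adjusted p = 0.066) and *Gjb6* (-0.34 without Sham 3, adjusted p = 0.0518) ended when 1 library was left out.

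Matrix, vessel and iron genes were mostly higher. In the matrix list 21 rose and 2 fell of 25. *Col3a1*, a fibrillar collagen, was at 262, 126 and 305 CPM in PEL_3d and 26.9 and 26.6 in Sham (3.11 ± 0.32), and *Lox*, which crosslinks collagen, at 21.8, 10.6 and 23.5 CPM in PEL_3d and 2.56 and 3.72 in Sham (2.57 ± 0.34). The proteases *Mmp3* and *Mmp13* had no Sham count and were at least 26.2-fold and 18.2-fold higher. *Sparc* (-0.19 ± 0.06) and *Timp2* (-0.17 ± 0.06) fell, with both calls lost when 1 library was left out, *Sparc* (-0.19 without Sham 3, adjusted p = 0.172) and *Timp2* (-0.17 without Sham 2, adjusted p = 0.201). For meningeal fibroblasts 4 rose and 1 fell of 7, with *Lum* (2.03 ± 0.25), *Dcn* (1.71 ± 0.21), *Mgp* (0.82 ± 0.12) and *Aldh1a2* (0.76 ± 0.23) higher and *Igf2*, a growth factor gene, lower (-0.63 ± 0.16). The fall of *Igf2* was not called under DESeq2 (adjusted p = 0.0707), without Sham 3 or in 1 fit over all hypothalamic groups. The list summed to 210.0 to 315 FPKM in PEL_3d and 179 and 201 in Sham, and its part in the matrix genes was not tested. PEL_3d 2 was the lowest PEL_3d library for *Col3a1*, *Lox*, *Lum* and *Dcn*. The call of *Aldh1a2* (0.66 without Sham 3, adjusted p = 0.172) ended when 1 library was left out.

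Endothelial and pericyte genes rose in 11 of 16 cases, with *Vwf*, the von Willebrand factor gene (97.6, 59.4 and 93.7 CPM in PEL_3d and 17.8 and 23.0 in Sham, 2.03 ± 0.21), *Cdh5*, vascular cadherin (1.59 ± 0.24), *Pecam1* (1.19 ± 0.15) and *Cldn5*, a tight junction protein (0.89 ± 0.09), at the top. Of 8 genes of activated vessels 5 rose, the leukocyte adhesion genes *Selp* (5.2, 1.79 and 4.54 CPM in PEL_3d and 0.202 and 0.193 in Sham, 4.23 ± 0.63) and *Icam1* (2.24 ± 0.23) the most, then *Pdgfb* (1.0 ± 0.19) and *Angpt2* (0.94 ± 0.28). For iron, heme and metallothioneins 11 of 13 rose. *Hmox1*, heme oxygenase 1 (chr8:75093621-75100589, plus strand), was at 144, 119 and 185 CPM in PEL_3d and 4.57 and 5.52 in Sham (4.89 ± 0.21, adjusted p = 1.04e-07). *Slc11a1*, a metal transporter of phagosomes (3.88 ± 0.28), *Ftl1*, the ferritin light chain (3.00 ± 0.12), and *Hp*, haptoglobin (2.77 ± 0.54), followed, while the transferrin receptor gene *Tfrc* fell (-0.26 ± 0.08). The calls of *Angpt2* (0.73 without Sham 3, adjusted p = 0.183) and *Tfrc* (-0.18 without Sham 2, adjusted p = 0.205) ended when 1 library was left out.

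Neuronal genes fell broadly and by little. Of 15 genes of neurons and synapses 12 fell and 0 rose (median -0.32). *Rbfox3*, the gene of the nuclear marker NeuN, was at 56.9, 60.9 and 52.9 CPM in PEL_3d and 91.6 and 87.4 in Sham (-0.65 ± 0.08, adjusted p = 0.000114). *Map2* (-0.58 ± 0.07), *Slc17a6*, the vesicular glutamate transporter (-0.36 ± 0.09), and *Snap25*, of the vesicle fusion machinery (-0.35 ± 0.08), fell, and *Tubb3* was not called (0.08 ± 0.08, adjusted p = 0.51). Receptor genes for glutamate and GABA fell in 20 of 21 cases (median -0.41). *Gabra5* was at 53.8, 51.6 and 51.7 CPM in PEL_3d and 100 and 80.7 in Sham (-0.79 ± 0.09), *Grin2b* at 145, 146 and 139 CPM in PEL_3d and 237 and 229 in Sham (-0.70 ± 0.06), *Gabra2* at 35.2, 40.7 and 33.1 CPM in PEL_3d and 62.7 and 54.8 in Sham (-0.69 ± 0.10) and *Gria2* at 179, 199 and 196 CPM in PEL_3d and 305 and 272 in Sham (-0.59 ± 0.07). Without Sham 2, 6 neuronal and 13 receptor genes were called lower, and the calls of *Slc17a6* (-0.19 without Sham 2, adjusted p = 0.134) and *Snap25* (-0.30 without Sham 2, adjusted p = 0.0817) ended. The CPM carry the TMM scaling and are not plain shares of a library, and the median log2 fold change over all tested genes was -0.01. The 5 genes with the largest absolute rises together were at 12336 CPM on average in PEL_3d and 1589.7 in Sham. What part such rises had in the neuronal falls was not tested.

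Genes of mature oligodendrocytes, the myelin-forming cells, were mostly not called. Of 13 genes of mature cells only *Cldn11* was called (0.39 ± 0.13), and *Mbp*, the myelin basic protein gene, was at 2350.0, 2351 and 2394 CPM in PEL_3d and 2077 and 2966 in Sham (log2 fold change -0.09 ± 0.12, adjusted p = 0.576). Sham 2 and Sham 3 lay on either side of all 3 PEL_3d libraries in this gene. In the fit of PEL_3d against Sham 3 alone, which holds no spread within Sham, it was lower (-0.33, adjusted p = 0.0355), as were 3 other genes of the list, and *Cldn11* (0.18 without Sham 2, adjusted p = 0.368) was not called. In the same kind of fit against Sham 2 alone 2 of the 13 were higher. In the precursor list 7 of 8 rose, with *Cspg4*, the NG2 proteoglycan (43.6, 40.6 and 47.2 CPM in PEL_3d and 21.7 and 23.0 in Sham, 0.97 ± 0.10), *Pdgfra* (0.62 ± 0.08), *Gpr17* (0.58 ± 0.09) and *Olig1* (0.52 ± 0.08) the most. Cholesterol synthesis genes fell in 15 of 23 cases (median -0.32). The enzymes *Idi1* (49.2, 62.5 and 54.4 CPM in PEL_3d and 85.5 and 75.1 in Sham, -0.54 ± 0.10), *Fdft1* (-0.47 ± 0.08) and *Sqle* (-0.45 ± 0.08) were lower, as were the regulators *Insig1* (-0.46 ± 0.09) and *Srebf2* (-0.36 ± 0.07). *Ebp* rose (0.46 ± 0.11). Without Sham 2, 4 precursor genes were called higher and 7 cholesterol genes lower, and *Ebp* was not called (adjusted p = 0.0681). CCAAT was also frequent in this list, in 14 of 16 promoters with an entry (87.5%).

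Ranked over all genes with a mean of at least 1 CPM, the 12 genes with separate groups and the highest fitted fold changes all lacked a count in Sham 2 or 3. A fitted fold change over a group at 0 depends on the fit's prior count, so this ranking is no order of size, and most of the lower bounds are under the count ratio of *Mmp12*. Besides *Tgm1* these genes were *Apoc2*, an apolipoprotein (at least 145-fold), the myeloid receptors *Cd300lf* (at least 79.8-fold), *Sirpb1c* (at least 41.1-fold) and *Cd200r4* (at least 37.8-fold), the serotonin receptor *Htr2b* (at least 51.6-fold), *F7*, coagulation factor VII (at least 49.4-fold), and 5 predicted genes. The 5 predicted genes *Gm5861*, *Gm6460*, *Gm6465*, *Gm8897* and *Gm8922* lie between 11183072 and 11850352 on chromosome 5, reached 8.42 to 15.9 CPM in PEL_3d 2, the highest library for each, and are uncertain, because near-identical copies can share reads. Sirp, Cd200r and Cd300 genes also have close paralogs. The 12 largest falls were led by *Crabp1*, a retinoic acid binding protein (1.15, 0.765 and 1.62 CPM in PEL_3d and 8.88 and 9.63 in Sham, -2.97 ± 0.27, adjusted p = 1.55e-05), ahead of *Avp*. *Gpr6*, an orphan receptor (-1.93 ± 0.32), *Corin*, a protease that activates natriuretic peptide (-1.93 ± 0.37), *Npas4*, *Fam90a1b* (-1.77 ± 0.33), *Ghrh*, *Tbx19*, *Ces1d*, a carboxylesterase (5.68, 2.68 and 5.78 CPM in PEL_3d and 14.9 and 13.2 in Sham, -1.57 ± 0.26), *Samd7* (-1.53 ± 0.43), *Nr0b1*, the factor DAX-1 (-1.51 ± 0.38), and *Zar1* (-1.51 ± 0.42) made up the rest. Of these 12, only *Avp* and *Ces1d* were above 10 CPM in Sham 2 or 3. The calls of *Nr0b1* (-1.34 without Sham 3, adjusted p = 0.0936), *Samd7* (-1.16 without Sham 2, adjusted p = 0.185) and *Zar1* (-1.29 without Sham 3, adjusted p = 0.138) ended when 1 library was left out.

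In absolute terms 5 genes had the largest rises. *Ctsd*, cathepsin D, gained most, at 4124, 3519 and 4548 CPM in PEL_3d and 442 and 451 in Sham (3.19 ± 0.11, adjusted p = 4.26e-08). *Spp1*, *Ctsb*, cathepsin B (2538, 2099 and 2921 CPM in PEL_3d and 623 and 616 in Sham, 2.02 ± 0.12), *Gfap* and *Ftl1* (1433, 1294 and 1721 CPM in PEL_3d and 178 and 193 in Sham) followed. The largest absolute falls were those of the mitochondrial gene *mt-Cytb* (6731, 7279.9 and 7450.4 CPM in PEL_3d and 8768 and 7954 in Sham, -0.22 ± 0.08, adjusted p = 0.038), *Sparcl1*, a matrix protein of astrocytes (2023, 1911 and 1824 CPM in PEL_3d and 2817 and 2746 in Sham, -0.54 ± 0.07), *Ptgds*, prostaglandin D synthase (-0.67 ± 0.12), *Gprasp1*, a sorting protein for receptors (-0.56 ± 0.08), and *Map2*. *Ptgds* was not called in 1 fit over all hypothalamic groups (adjusted p = 0.0545). The call of *mt-Cytb* (-0.15 without Sham 2, adjusted p = 0.335) was lost without any 1 of PEL_3d 1, Sham 2 and Sham 3.

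With Sham 1 kept, the comparison called 1530 genes higher and 153 lower of 14726 tested, 10.4% and 1.04%. The counts of called members stayed high in several lists: 30 cell cycle genes, 22 disease-associated macrophage genes, 11 Fc receptor and oxidase genes, 17 reactive astrocyte genes, 16 lysosomal genes, 12 homeostatic microglia genes, 14 chemokines and cytokines, 10 complement genes and 10 antigen presentation genes were higher. Interferon-stimulated genes dropped to 8, blood leukocyte genes to 6, endothelial and pericyte genes to 4, axon injury genes to 8, matrix genes to 17 and endoplasmic reticulum stress genes to 1. Among falls, 2 receptor genes, 1 neuronal gene and 1 immediate early gene were called by edgeR, and 0 genes of the hypothalamus, cholesterol and magnocellular lists, where 0, 6 and 0 were lower at an unadjusted p under 0.05. DESeq2 with Sham 1 kept called 10 receptor genes, 2 neuronal genes and 4 cholesterol genes lower, and 0 of the hypothalamus and magnocellular lists. By edgeR with Sham 1 kept *Avp* was at -2.16 ± 1.36 (adjusted p = 0.379), *Oxt* at -0.83 ± 1.24 (adjusted p = 0.748) and *Gal* at 2.62 ± 1.03 (adjusted p = 0.171). *Atf3* (4.80 ± 0.32, adjusted p = 0.00048), *Sprr1a* (7.01 ± 0.36), *Lgals3* (5.31 ± 0.68), *Mki67* (5.18 ± 0.56) and *Gfap* (2.50 ± 0.25) kept their calls.

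The same lesion was also sequenced in mice given GH, as labelled, with 3 PEL_3d_GH and 3 Sham_GH libraries that share no sample with the comparison above. There 3973 genes were higher and 3708 lower of 14743 tested, 26.9% and 25.2%. Of the 3316 genes higher without GH, 2926 were also higher with GH, 88.2% of those and 73.6% of the genes higher with GH. Of the 2719 genes lower without GH, 2239 were also lower, 82.3% of those and 60.4% of the genes lower with GH. Called genes turned the other way in 8 and 3 cases. Across 14670 genes, which are not independent replicates, the 2 sets of log2 fold changes had a Pearson r of 0.929 and a Spearman rho of 0.832.

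The same lists were counted in the GH mice. Higher with GH were 30 of 31 cell cycle genes, 24 of 24 disease-associated macrophage genes, 21 of 21 interferon-stimulated genes and 20 of 22 reactive astrocyte genes. Lower with GH were 21 of 21 receptor genes, 22 of 23 cholesterol genes, 11 of 18 hypothalamus genes and 7 of 12 magnocellular genes. On a scale set over all 18 hypothalamic libraries, *Avp* was at 6.59, 60.4 and 12.4 CPM in PEL_3d_GH and 72.5, 84.7 and 78.9 in Sham_GH (log2 fold change -1.58 ± 0.57, adjusted p = 0.0402). PEL_3d_GH 2, with the highest *Avp*, also had the lowest *Gal* of the lesioned GH libraries, 42.1 CPM against 109 and 89.0. *Oxt* fell as well (-0.94 ± 0.33, adjusted p = 0.0372).

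**Figure D4:**
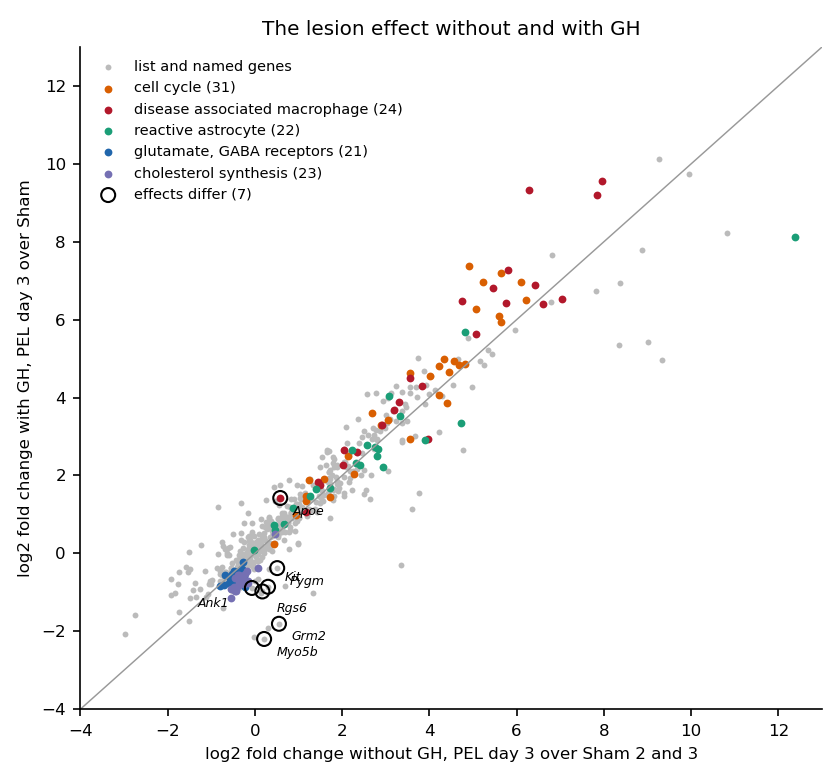
Log2 fold change of PEL_3d over Sham without GH (x axis) and with GH (y axis) for the list and named genes, with 5 lists in colour and the line of equal change. Most points lie near the line, and circles mark the 7 genes whose effects differed.

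The difference of the 2 lesion effects was tested as an interaction over 11 libraries. Only 7 of 15164 genes differed, 0.0462%, with 1594 at an unadjusted p under 0.05, while DESeq2 called 148. *Apoe* rose more with GH (log2 fold change 1.42 against 0.58 without it, adjusted p of the difference = 0.0452). The receptor kinase *Kit*, the G protein regulator *Rgs6*, the glutamate receptor *Grm2*, the motor *Myo5b*, the ankyrin *Ank1* and glycogen phosphorylase *Pygm* fell with GH. Without GH *Kit* (0.30 ± 0.10) and *Pygm* (0.51 ± 0.10) rose and the other 4 did not pass the threshold, though *Grm2* did with no filter on low counts (adjusted p = 0.0453), with the replicate block (adjusted p = 0.0136) and without PEL_3d 1 (adjusted p = 0.0289). The call of *Kit* ended without PEL_3d 1, PEL_3d 3, Sham 2 or Sham 3 (adjusted p up to 0.179), with the replicate block (adjusted p = 0.0508) and in 1 fit over all hypothalamic groups (adjusted p = 0.128). *Myo5b* was at 7.54, 8.38 and 9.26 CPM in PEL_3d, 8.24 and 6.37 in Sham 2 and 3, 4.99, 9.08 and 4.96 in PEL_3d_GH, and 36.5, 23.8 and 26.8 in Sham_GH. The Sham_GH libraries were the highest of the 11 in this gene, and the same held for *Kit*, *Rgs6*, *Grm2* and *Ank1*. Sham 1, which is outside this test, had 137 CPM of *Myo5b*. The hippocampus list summed to 39.1 to 44.8 FPKM and the thalamus list to 35.0 to 40.8 in Sham_GH, near the levels in Sham 2 and 3, which were 43.1 and 43.5 FPKM for hippocampus and 40.2 and 35.1 for thalamus. When 1 library was left out, the number of genes called ran from 0 to 633, the latter without PEL_3d_GH 3. It was 0 without PEL_3d 1, PEL_3d 3, PEL_3d_GH 1 or any 1 of the Sham_GH libraries.

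Against the same lesion at day 10, cell cycle genes had the largest median difference among the 39 lists. PEL_10d and PEL_3d, 3 libraries each without GH, were compared directly, and 938 genes were higher and 1804 lower at day 10 of 14807 tested, 6.33% and 12.2%. This comparison shares the PEL_3d libraries with the one above, so each gives its own values only. All 31 cell cycle genes were lower at day 10, with a median log2 difference of -3.45. *Mki67* was at 87.8, 71.1 and 96.3 CPM at day 3 and 3.66, 3.1 and 4.84 at day 10. *Hmox1* (-3.01 ± 0.25), *Spp1* (-3.67 ± 0.43), *Sprr1a* (-3.12 ± 0.19), *Atf3* (-1.22 ± 0.22) and *Tgm1* (-4.23 ± 0.19) were lower at day 10 too.

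Macrophage genes differed among themselves in time. Of the disease-associated list 11 were lower and 2 higher at day 10, *Apoe* among the latter (0.71 ± 0.12), and *Gpnmb* did not differ past the threshold (-0.11 ± 0.53, adjusted p = 0.902), with 472, 106 and 592 CPM at day 10. Homeostatic microglia genes were lower in 13 of 14 cases, reactive astrocyte genes in 16 of 22 and Fc receptor and oxidase genes in 10 of 11. Interferon-stimulated genes were called by edgeR in 0 of 21 cases, with 2 at an unadjusted p under 0.05 and 0 by DESeq2, and antigen presentation genes in 1 of 14. Myelin genes, mostly not called at day 3, were higher at day 10 than at day 3 in 10 of 13 cases. *Avp* was higher at day 10 than at day 3 (1.38 ± 0.19, adjusted p = 0.00113), at 50.7, 31.0 and 38.9 CPM, still below both Sham libraries. *Oxt* was at 20.8, 17.1 and 17.9 CPM at day 10 (difference -0.73 ± 0.28, adjusted p = 0.105). *Gal* was at 25.7, 30.5 and 24.9 CPM, lower than at day 3 (-2.28 ± 0.15, adjusted p = 2.06e-05).

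**Figure D5:**
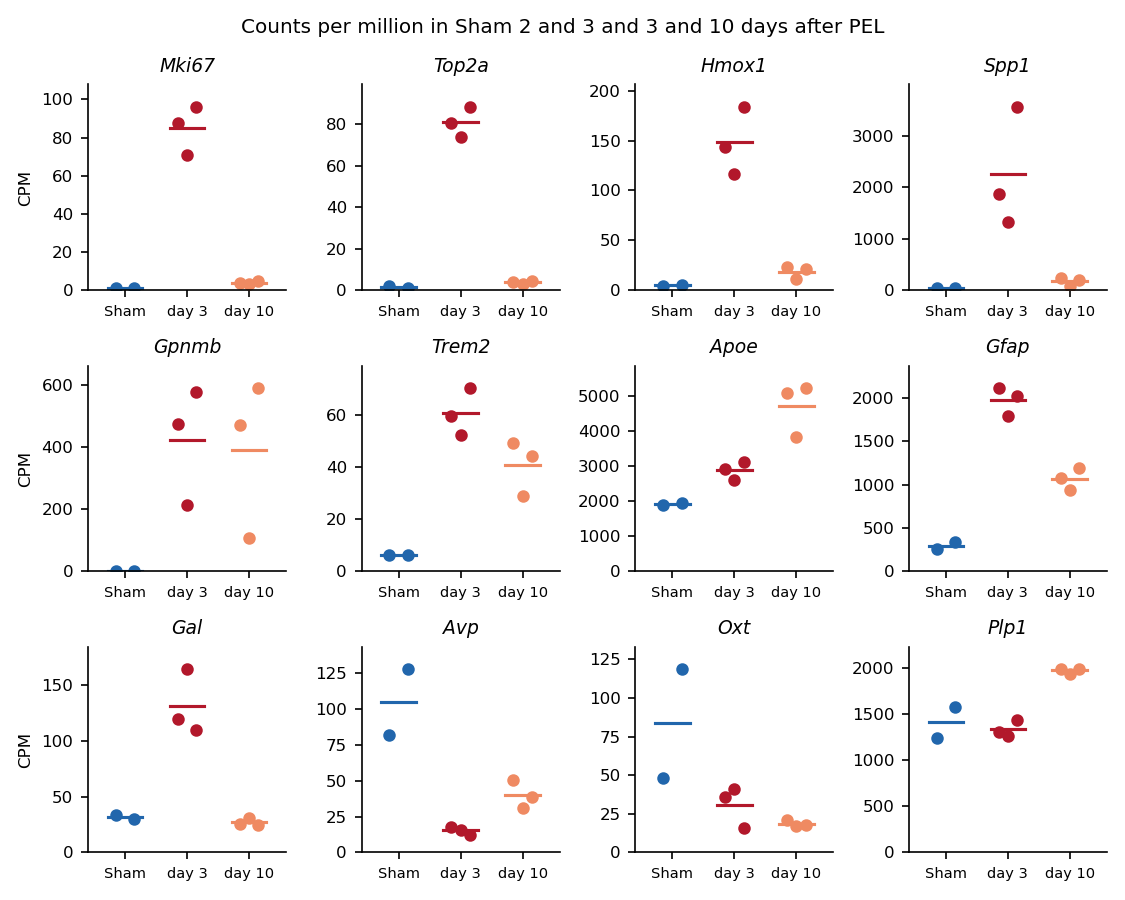
CPM of 12 genes in Sham 2 and 3, PEL_3d and PEL_10d (3 libraries each), scaled over all hypothalamic libraries, with points for libraries and bars for group means. *Mki67* is at 71.1 CPM or more at day 3 and at 4.84 or less at day 10, while the *Gpnmb* libraries of the 2 days overlap.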

How the data were processed

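RNA of hypothalamic tissue was sequenced in 6 libraries, 3 PEL_3d and 3 Sham, of 24 in the series. The authors aligned reads with Hisat2 to GRCm38 (mm10 in the labels) and counted them per gene with featureCounts. The deposited table holds estimated counts, of which 8.22% are not whole, and FPKM values computed by the authors. Whether reads with several matches were split, and whether strand was used, is not given in the sources used here. The authors tested pairs of groups with DESeq2. Counts were rounded here and tested with edgeR 4.0.16 in R 4.3.3 (TMM scaling, genes kept by filterByExpr with a minimum count of 10, quasi-likelihood test, Benjamini-Hochberg adjustment over all genes tested, threshold 0.05). It gave every adjusted p except those credited to DESeq2. Values after ± are standard errors of the log2 fold change. FPKM served only for summed marker lists and the levels of single markers. DESeq2 1.42.0 served as an alternative, and the fits were tested on simulated data. Genes were placed by GENCODE vM21 (GRCm38), in which 22219 of 22274 identifiers had an entry.

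Groups were taken from the labels. Sham 1 was left out of the main comparison for its marker profile, and the comparison was repeated with it. The comparison and its gene lists were chosen with earlier results of these data known. Named genes were *Avp*, *Oxt*, *Crh*, *Atf3*, *Jun* and *Lgals3*, the 12 highest and 12 lowest fitted fold changes without overlap between groups and with a mean CPM of at least 1, up to 4 called members of each of 39 lists by size of change, and the 5 largest absolute differences in each direction. A further 73 list members or interaction genes were named as examples after their values had been seen. Some genes that these rules choose are not reported here. The alternatives were DESeq2, its size factors, all genes tested without a filter, only genes averaging 50 counts or more, a replicate block, 1 fit over all hypothalamic groups, and leaving out each library. At 15095267 to 16317144 counts per library, a gene at 0 in both Sham libraries had a limit of 0.0986 CPM, which covers counting error only. Hippocampal libraries were used only as values beside Sham 1, and PEL_10d_GH entered the scaling over all hypothalamic libraries, the fit over all hypothalamic groups and the replicate checks but no comparison.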

Additional observations from a re-analysis of the deposited data

Results flagged for a closer look

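The lesion effect at day 3 differed between mice without and with GH for 7 genes, by edgeR's test of the difference between both effects (without minus with GH, log2 scale). *Apoe* had a difference of -0.83 ± 0.13 (adjusted p = 0.0452), *Kit* of 1.17 ± 0.16 (adjusted p = 0.0329), *Rgs6* of 1.16 ± 0.17 (adjusted p = 0.0329) and *Grm2* of 2.37 ± 0.37 (adjusted p = 0.0452). *Myo5b* had a difference of 2.41 ± 0.34, *Ank1* of 0.83 ± 0.12 and *Pygm* of 0.90 ± 0.13, each with an adjusted p of 0.0329. For *Kit*, *Rgs6*, *Grm2*, *Myo5b* and *Ank1* all 3 Sham_GH libraries were above the other 8. In *Kit* these were 67.5, 53.8 and 54.8 CPM, against 31.0 and 32.5 in Sham 2 and 3. Leaving out 1 library gave between 0 and 633 genes, with 633 without PEL_3d_GH 3. The number was 0 without PEL_3d 1, PEL_3d 3, PEL_3d_GH 1 or any 1 of the Sham_GH libraries. It was 2 without PEL_3d 2 and 15 without PEL_3d_GH 2.

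Between day 3 and day 10 after PEL 2742 genes differed, 1804 lower and 938 higher at day 10. Without PEL_3d 3 the number was 1333, without PEL_10d 2 it was 1478 and without PEL_3d 1 it was 1629.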

How the results depend on the processing

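Of 6035 genes called between PEL_3d and Sham, the count stayed within 1.5 times under DESeq2 (5310), its size factors, all genes tested without a filter, only genes averaging 50 counts or more, 1 fit over all hypothalamic groups, and the replicate block (5470). It was 1629 with an absolute log2 fold change over 1 required (1539 higher, 90 lower), 1683 with Sham 1 kept (1530 higher, 153 lower) and 2755 with Sham 1 kept under DESeq2 (1916 higher, 839 lower), an alternative chosen after seeing the data. Leaving out 1 library gave 3394 (without Sham 2) to 6632, with 3887 without Sham 3. In the GH mice the count of 7681 ran from 6232 to 8815, and was 7746 with the block. The count of 7 for the difference between both lesion effects was 148 under DESeq2, 19 with no filter, 0 with Sham 1 kept and 0 to 633 when 1 library was left out. The day 10 count of 2742 ran from 1333 to 2799. Same replicate numbers were not shown to pair libraries. Correlations of deviations were 0.024 in both same-number pairs of the main comparison, which are 1 value because deviations of 2 libraries mirror each other. In the GH mice they were -0.14 to 0.253, against -0.337 to 0.136 between different numbers. Between the days they were 0.098 to 0.437, against -0.433 to 0.287 between different numbers. With the replicate block the day 10 count was 3367 and the count of differences between lesion effects was 0. With Sham 1 kept the sign turned for *Aqp1* (-4.20), *Neurod6* (-5.79), *Myo5b* (-2.53), *Grm2* (-0.62), *Prkcd* (-0.42), *Cldn11* (-0.36), *Foxj1* (-0.13), *Ank1* (0.23), *Ecel1* (0.19), *Gap43* (0.26), *Scg2* (0.19), *Slc17a6* (0.18), *Sparc* (0.29) and *Timp2* (0.15). Under DESeq2 with Sham 1 kept it turned for *Cldn11* (-0.43), *Foxj1* (-0.19), *Grm2* (-0.70), *Ank1* (0.18), *Ecel1* (0.15), *Gap43* (0.22), *Scg2* (0.15), *Slc17a6* (0.14), *Sparc* (0.25) and *Timp2* (0.11). *Hbb-bs*, not called, was 0.04 without PEL_3d 2, 0.27 without Sham 2 and -0.48 without Sham 3, and *Mbp*, not called, ran from -0.33 without Sham 2 to 0.19 without Sham 3. The cause of these shifts was not tested. Further list counts of the main comparison moved beyond 1.5 times, among them the following. Testing only genes averaging 50 counts or more left 7 chemokine and 2 leukocyte rises, since fewer genes were tested. Other hypothalamic peptide rises numbered 2 with the replicate block or without PEL_3d 1, endoplasmic reticulum stress falls 2 without PEL_3d 2, and anterior pituitary rises 1 without Sham 2. Astrocyte upkeep falls numbered 2 without Sham 2, meningeal fibroblast falls 2 with the replicate block, and glucocorticoid-responsive falls 1 without PEL_3d 2, PEL_3d 3, Sham 2 or Sham 3. Only 2 Sham libraries carry the main comparison.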

Other observations

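The library labelled HIP_Sham 1, from the hippocampal set, had the opposite profile to Sham 1 in the hypothalamus, hippocampus and choroid plexus lists. Its hypothalamus list summed to 1185 FPKM, against 63.4 and 67.4 in HIP_Sham 2 and 3, and its hippocampus list to 40.2, against 447 and 387. *Avp* and *Oxt* were at 139 and 114 FPKM in it and at most 0.309 and 0.332 in HIP_Sham 2 and 3. *Ttr* was at 4.0 FPKM in HIP_Sham 1 and at 4157 and 5224 in HIP_Sham 2 and 3. The hypothalamus list of Sham 1, at 68.6 FPKM, lay near HIP_Sham 2 and 3, but its choroid plexus and myelin lists summed to 14994 and 6278 FPKM. In HIP_Sham 2 and 3 the choroid plexus list summed to 4383 and 5487 FPKM and the myelin list to 3512 and 3782. The groups were kept as the labels give them, and HIP_Sham 1 entered no comparison. HIP_Sham 3 is hippocampal by its title but hypothalamic by its tissue label, and its list sums lie beside those of HIP_Sham 2.

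Within the day 3 libraries, PEL_3d 3 had the highest interferon and leukocyte list sums, while PEL_3d 2 had the lowest *Gpnmb* and *Col3a1* levels of the 3 and the highest *Gal*, 168 CPM. No label sets these libraries apart.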
